A study of Homo sapiens with 7 samples.

Results

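The array of NCI-H520 cells given an shRNA against CNOT7 was compared with the CNOT6L shRNA and NOC shRNA arrays, the other arrays of the same slide row, so these 3 of the 7 arrays of the series were taken by slide row and title. NCI-H520 is a human cell line derived from a lung tumour of squamous type. Cells were transfected with 6 µg of a puromycin-resistance plasmid, selected with puromycin at 6 µg/mL from 12 h and harvested at 72 h, and their total RNA was hybridised to single-colour Agilent arrays. All 3 groups share this plasmid backbone, selection and time, and each stands for 1 shRNA, 1 transfection and 1 array. In the labels the same target accession stands for the CNOT6L shRNA as for the NOC (nocturnin, NOCT) shRNA, so the sequence of the former is uncertain. The image of the NOC shRNA array was processed on a different day from the other 6. The empty-vector, non-target shRNA, PARN shRNA and CNOT6 shRNA arrays lay in slide row 1. As no control array lay in row 2, a difference from the controls and a difference between slide rows cannot be told apart.

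CNOT7 is one of the DEDD-type nucleases that shorten the poly(A) tail of mRNAs as part of the CCR4-NOT complex. It docks on the scaffold CNOT1 together with an EEP-type nuclease, CNOT6 or CNOT6L, and its close paralog CNOT8 can take its place. BTG and TOB proteins and RNA-binding proteins bring the complex to particular mRNAs, after which the body of the mRNA is decapped and degraded from the 5′ end or degraded by the exosome from the 3′ end. NOC is a nuclease of the EEP superfamily outside this complex.

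Of 42405 gene probes, 36371 were well above background on all 3 arrays, and these covered 17309 gene symbols. Levels are the log2 processed signal minus the log2 of the 75th percentile of the array, so that 0 is the level of that percentile and a difference of 1 is 2-fold. Levels of different probes are not compared. With 1 array per shRNA, the differences lack a replicate check and no significance test was run. The spread among the arrays was used as a yardstick instead. Over these probes the SD of log2 differences was 0.31 between the CNOT7 shRNA and CNOT6L shRNA arrays, 0.28 between CNOT7 shRNA and NOC shRNA, and 0.33 between the mates themselves. It was 0.45 to 0.70 for the pairs with an array of row 1. Between the spots of probes printed on 2 spots, the median SD was 0.05 log2 on the CNOT7 shRNA array.

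Markers of the cells were examined next, and 14 of 18 squamous markers were above background on the 3 arrays. Of all 19060 gene symbols, 17309 had a probe above background on these arrays. Detection alone therefore does not tell a cell type, here or for the other markers below. SOX2, a transcription factor of the squamous lineage, had levels of 4.84, 4.58 and 4.88 on the CNOT6L shRNA, CNOT7 shRNA and NOC shRNA arrays. The adhesion genes PERP, DSP and JUP reached 4.19, 3.45 and 1.55, and the keratins KRT15 and KRT6A 1.70 and -0.78, each above background on all 3. TP63 was above background on 1 of the 3 arrays, KRT14 and DSG3 on 0, and the highest KRT5 level was -7.18. The squamous label was thus met by some of its markers and not by others. Of the 6 fibroblast markers, COL1A1, COL1A2 and DCN were above background on all 3 arrays, with highest levels of -2.75, -6.25 and -5.13, PDGFRB on 2, and COL3A1 and LUM on 0. All 6 immune, 5 endothelial and 6 lung alveolar markers were above background on all 3 arrays. Among them CD14 reached 3.75 and NKX2-1 -0.47.

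The targeted mRNA was examined first. Probe A_23_P394166 for CNOT7 had a level of 0.21 upon CNOT7 silencing, against 1.25 for CNOT6L shRNA and 1.37 for NOC shRNA. In row 1 its level was 1.05 for empty vector, 1.14 for non-target shRNA, 1.04 for PARN shRNA and 1.27 for CNOT6 shRNA. The other probe, A_32_P141262, had 0.09 on the CNOT7 shRNA array, against 1.31 and 1.20 on the mates and 1.13, 1.03, 0.90 and 1.03 on the row 1 arrays in the same order. On both probes the CNOT7 shRNA array stood alone below a tight group of 6 arrays. The gap to the next lowest array was 0.83 and 0.81, while the SD of the other 6 arrays was 0.13 and 0.14. The differences from CNOT6L shRNA and NOC shRNA were -1.04 and -1.16 for the first probe and -1.22 and -1.11 for the second. CNOT7 mRNA was thus left at 46.6% and 44.6% of the mean of the mates. The 2 spots of each probe gave -1.11 and -1.09 for the first probe, and -1.16 and -1.17 for the second. Without scaling between arrays, the probes differed from the mean of the mates by -0.87 and -0.93, and neither probe was then 2-fold below both mates. With normexp background correction A_23_P394166 was also not 2-fold below both mates. In a bulk lysate, fewer cells carrying the mRNA and less mRNA per cell cannot be told apart.

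**Figure D1:**
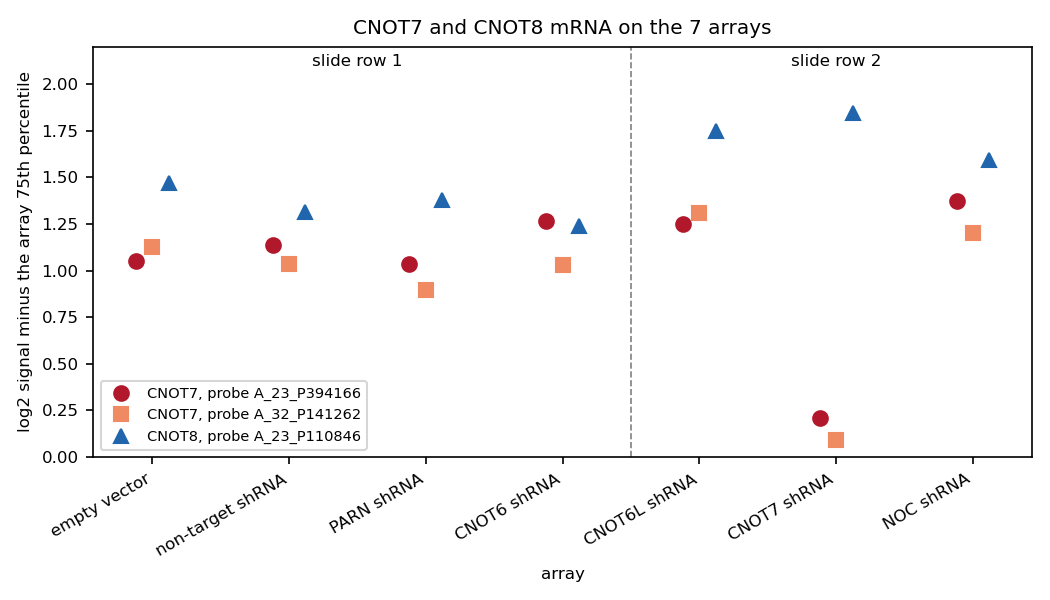
Level of the CNOT7 probes and of the CNOT8 probe on each array (log2 signal minus the 75th percentile of the array), with 1 point per array and slide rows separated by the dashed line. Both CNOT7 probes lie at 0.21 and 0.09 on the CNOT7 shRNA array and at 0.90 or above on the other arrays, and CNOT8 has its highest level, 1.85, on the CNOT7 shRNA array.

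The remaining CCR4-NOT subunits differed little. All 11 listed subunits were measured, CNOT7 was the only one past 2-fold, and the other 10 lay between -0.19 and 0.29 from the mean of the mates. CNOT8, the paralog of CNOT7, had levels of 1.75, 1.85 and 1.59 on the CNOT6L shRNA, CNOT7 shRNA and NOC shRNA arrays and 1.24 to 1.47 in row 1. The CNOT7 shRNA array was the highest of 7, by 0.10 over its nearest array, which is below the SD between arrays of row 2. CNOT1, the scaffold, had 0.27, 0.51 and 0.26 on the same arrays, and 0.43 to 0.78 in row 1, so the CNOT7 shRNA array lay within the range of row 1. CNOT6 had 0.62, 0.74 and 0.72. CNOT6L, the target of a mate, had -1.98, -1.42 and -1.45, so the CNOT7 shRNA array was level with the NOC shRNA array. Among the 9 other deadenylases measured, including PARN, PAN2, PAN3 and NOCT, none was past 1.5-fold and the differences from the mean of the mates ran from -0.30 for PDE12 to 0.27 for ANGEL1.

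The question of which transcripts set the CNOT7 shRNA array apart was addressed by counting probes at least 2-fold beyond both mates. There were 43 probes higher (0.118% of those measured) and 10 lower (0.0275%). The CNOT6L shRNA array, set in the same way against the other arrays of row 2, had 148 higher (0.407%) and 64 lower (0.176%), and the NOC shRNA array 43 higher (0.118%) and 29 lower (0.0797%). These 3 comparisons share their arrays. With normexp background correction 15 and 6 probes were called in place of 43 and 10. At 1.5-fold, 180 probes were higher (0.495%) and 150 lower (0.412%) upon CNOT7 silencing.

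**Figure D2:**
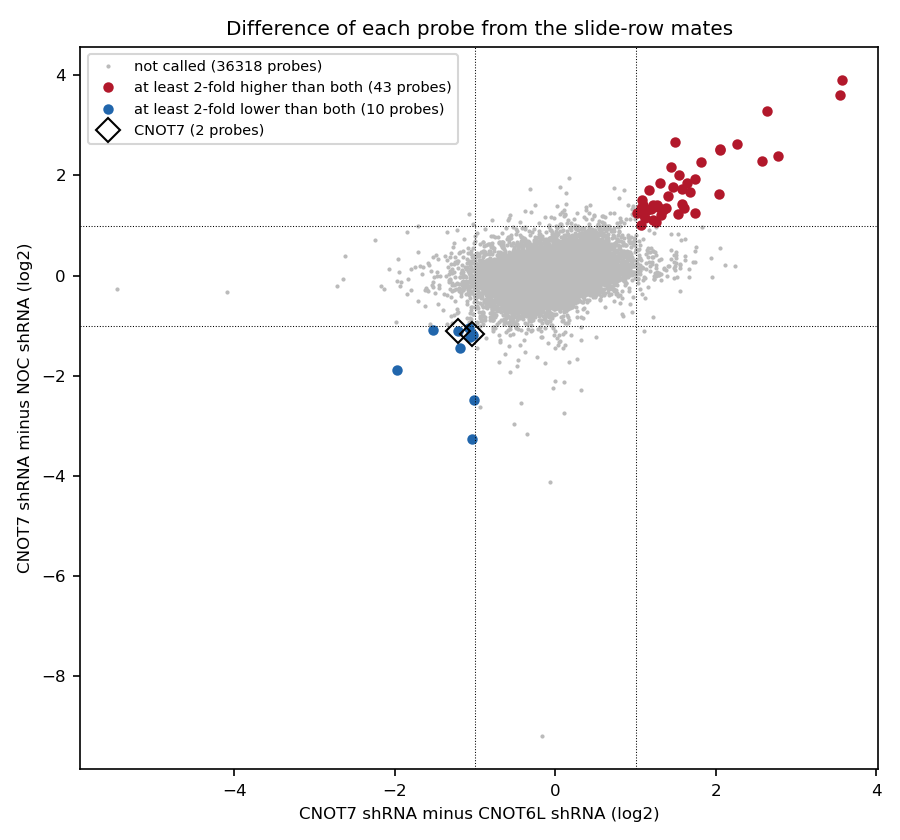
Log2 difference of the CNOT7 shRNA array from the CNOT6L shRNA array (horizontal) and from the NOC shRNA array (vertical) for each of the 36371 probes, with dotted lines at 2-fold. The 43 red probes are 2-fold higher and the 10 blue probes 2-fold lower than on both mates, and the CNOT7 probes, marked by diamonds, lie at -1.04 and -1.16 and at -1.22 and -1.11.

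The called probes were mostly dim. The probes were divided into 4 groups of equal size by signal, with the CNOT7 shRNA array included in that signal. From dimmest to brightest, 26, 11, 6 and 0 of the higher probes and 4, 2, 1 and 3 of the lower probes fell in each. The SD of differences from CNOT6L shRNA was 0.44 in the dimmest group and 0.18 in the brightest. Of the 43 higher probes, 34 were printed on 1 spot, and of the 9 with more spots 7 were at least 2-fold higher on every spot. By annotation 21 carried a gene name, 9 were lincRNA probes and 13 had no name in the table used, whereas 6 of the 10 lower probes were named and 2 were lincRNA probes. The share called higher was 0.094% of named probes, 0.132% of lincRNA probes and 0.18% of unnamed probes, whose median levels were -1.61, -4.31 and -4.37.

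The CNOT7 shRNA array was the highest of all 7 arrays for 36 of the 43 probes and the lowest for 8 of the 10. The call itself placed it beyond the 2 mates, and no such count is given for the mates, so these counts lack a baseline. It was at least 2-fold beyond every other array for 10 of the 43 and for 2 of the 10, and the latter are both lincRNA probes. The higher probes were closer to some arrays of row 1 than to others, since 12 were 2-fold above the empty-vector array and 32 were 2-fold above the non-target array. These 2 arrays also differed in detection, with 91.4% and 82.0% of all gene probes above background.

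Among named genes, CSRP3, a LIM protein of striated muscle, had the largest difference. Its levels were -8.50, -6.44 and -8.94 on the CNOT6L shRNA, CNOT7 shRNA and NOC shRNA arrays and -8.93 to -7.96 in row 1. It was 4.85-fold above the mean of the mates, with spots at 2.16 and 2.40, but it was above background on only 4 of the 7 arrays. With normexp background correction its difference from the mean of the mates was 0.40 log2 in place of 2.28, below that of SULT6B1 at 1.57 and of CD86 at 1.44, so its rank and its call were lost. Normexp was run with an offset of 50 added to every signal, which by itself narrows the differences of dim probes. The loss is therefore no independent check of the call. CD86, a costimulatory ligand of antigen-presenting cells, had -3.36, -1.78 and -3.51, and in row 1 -2.77, -4.01, -2.74 and -3.05 for empty vector, non-target shRNA, PARN shRNA and CNOT6 shRNA. It was 3.14-fold above the mean of the mates, and its spots gave 1.60 and 1.70. The CNOT7 shRNA array lay above every other array for both genes.

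F13A1, which encodes the A subunit of coagulation factor XIII, was higher on both its probes. Probe A_32_P140139 had -2.10, -1.01 and -2.42 on CNOT6L shRNA, CNOT7 shRNA and NOC shRNA and -2.87 to -1.83 in row 1. Probe A_33_P3416097 had -7.08, -5.67 and -7.27 on the same arrays. The CNOT7 shRNA array was highest of 7 on each. F13A1 was chosen after its values were seen, for its agreement between probes, as were LCP1 and SLC2A5 for their spots. LCP1, an actin-bundling protein, had -4.44, -3.34 and -4.57, and the fructose transporter SLC2A5 had -4.18, -2.99 and -4.33, each above all other arrays and each with its spots past 2-fold. CD86, LCP1 and F13A1 are expressed in leukocytes, and of the 6 immune cell markers measured 1 was above both mates and 1 below, with PTPRC at -2.84, -3.59 and -3.71 on its brightest probe. Levels varied within that list, and CD14 reached 3.75 in row 2. The part of such RNA in these 3 differences was not tested.

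The bone morphogenetic protein BMP3 had -4.91, -3.69 and -5.05, and its other probe differed by 0.90 from the mean of the mates. SYT13, of the synaptotagmin family, had -5.81, -4.21 and -5.56 and FLYWCH2 -7.27, -5.54 and -6.79. Both were above all 4 row 1 arrays. The keratin-associated protein gene KRTAP15-1, LRRC2 and the transcription factor ASCL3 were 3.57-, 3.42- and 3.49-fold above the mean of the mates, on 1 spot each. For these 3 genes the empty-vector array was the next highest, at -6.01, -5.76 and -5.66 against -5.53, -5.31 and -5.23 on the CNOT7 shRNA array. With normexp the differences of KRTAP15-1, LRRC2 and ASCL3 from the mean of the mates were 0.44, 0.58 and 0.49 log2, and those of SYT13, FLYWCH2, BMP3 and ATP6V1B1 0.76, 0.43, 0.89 and 0.14, so these 7 calls were lost. ATP6V1B1, a subunit of the vacuolar proton pump, was 2.50-fold higher, but its spots gave 0.48 and 2.16. The value of ATP6V1B1 therefore rests on a single spot.

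For several other called genes, the CNOT7 shRNA array lay within the range of row 1. LMTK3 had -4.73 on the CNOT7 shRNA array and -4.77 to -4.47 on the arrays of row 1, against -5.95 and -6.13 on the mates, which stood apart from the other 5 arrays. TMPRSS13, a membrane serine protease, had -3.63, within the row 1 range of -4.92 to -3.37. SULT6B1, a member of the sulfotransferase family, had -2.73, while row 1 ranged from -4.82 to -1.61. With normexp LMTK3 and TMPRSS13 differed from the mean of the mates by 0.64 and 0.94, short of 2-fold.

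**Figure D3:**
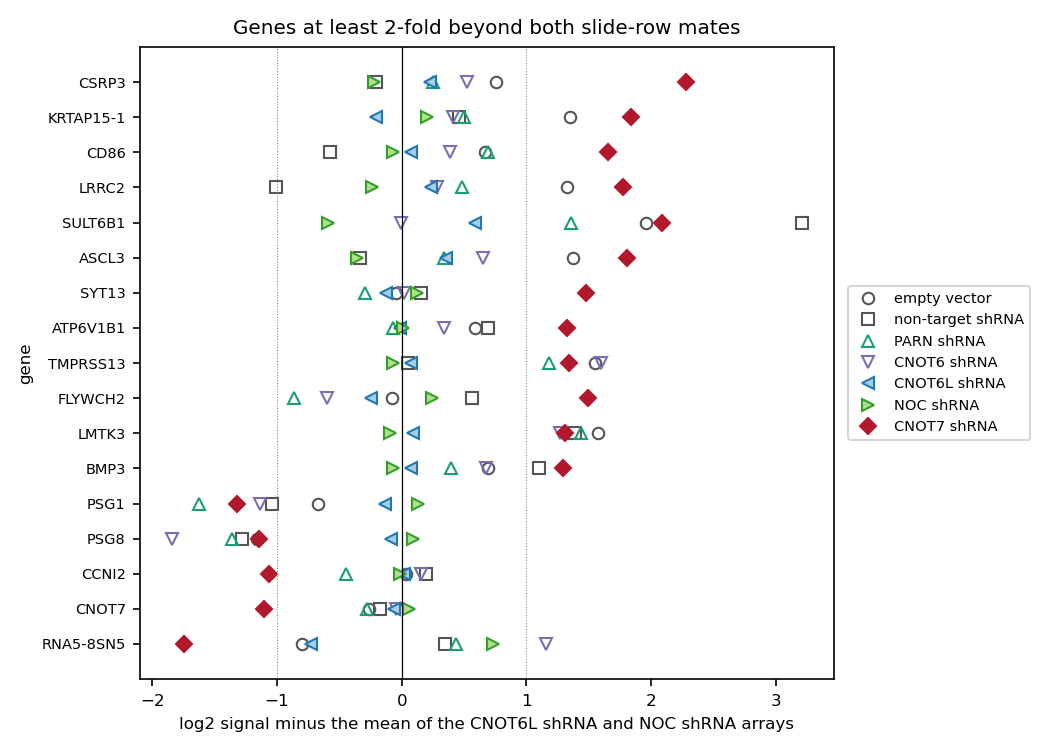
Difference of each array from the mean of the CNOT6L shRNA and NOC shRNA arrays (log2, horizontal) for the 12 highest and the 5 lowest named genes, with 1 symbol per array and dotted lines at 2-fold. The CNOT7 shRNA diamonds of CSRP3, CD86 and SYT13 lie beyond all other arrays, whereas those of LMTK3, TMPRSS13 and PSG1 lie among the arrays of row 1.

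Apart from CNOT7, the 2-fold rule named 4 genes as lower. PSG1 and PSG8, pregnancy-specific glycoproteins of a family of near-identical genes whose probes may cross-hybridise, had -7.47 and -6.23 on the CNOT7 shRNA array, against -6.28 and -5.17 for CNOT6L shRNA and -6.02 and -4.99 for NOC shRNA. Row 1 ranged from -7.77 to -6.82 for PSG1 and from -6.92 to -6.24 for PSG8, so the mates were the highest arrays for both genes, and the other PSG8 probe differed by only -0.05. CCNI2, a cyclin family gene, had -5.53, -6.61 and -5.56 and -5.99 to -5.35 in row 1, so that the CNOT7 shRNA array was lowest of all 7. The RNA5-8SN5 probe, for 5.8S ribosomal RNA of a repeated gene, had 0.86, -0.16 and 2.32, and 0.79 to 2.75 in row 1. This probe was spread widely over all arrays, on 1 spot. With normexp PSG1, PSG8 and CCNI2 differed by -0.71, -0.79 and -0.63, short of 2-fold.

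Among lincRNA probes that were higher, the largest differences were on those whose names give hg19 positions chr2:216397855-216486648 and chr7:20258275-20270775, both in forward orientation. The first had -4.18 on the CNOT7 shRNA array and -6.45 to -5.61 on the other 6, and the second -3.01 against -4.95 to -4.66. The CNOT7 shRNA array thus stood above 6 like values on both probes, each printed on 1 spot. Among lower lincRNA probes, A_19_P00800122 had -1.21, -3.18 and -1.29, and every row 1 array was at -2.07 or above. It had the largest smaller difference of the lower probes, on 1 spot. The probe at chrX:15690954-15751379, in reverse orientation, had -3.86, -5.38 and -4.29, also the lowest of 7.

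Because dim probes vary most, the brighter 18186 probes were also examined at 1.5-fold. The signal used for this cut included the CNOT7 shRNA array. A high value on that array therefore helped a probe into the set, and a low value helped to keep it out. Cut on the mates alone, the set held 5 probes 2-fold higher and 4 probes 2-fold lower. The 1.5-fold counts are not given for that cut, so the higher and lower counts below are not compared with each other. There, 30 probes were higher (0.165%) and 24 lower (0.132%), covering 21 and 18 named genes, and the CNOT7 shRNA array was the extreme of all 7 arrays for 23 and 16 of these probes. Here too the call itself placed it beyond the 2 mates. The genes in the next paragraphs were chosen after their values were seen, for several spots, several probes or a place outside the other 6 arrays.

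Among the lower genes of this set that were short of 2-fold, GAL, which encodes the neuropeptide galanin, had the largest smaller difference, at -0.97. Its levels were 3.28, 2.30 and 3.74 on CNOT6L shRNA, CNOT7 shRNA and NOC shRNA, and 3.06 to 3.65 in row 1, and it was at 0.434 of the mean of the mates with spots at -1.22 and -1.19. HIRA, a histone H3.3 chaperone, had 2.35, 1.73 and 2.64 and 2.17 to 2.32 in row 1. The CNOT7 shRNA array was the lowest of 7 for both, with no overlap with the other 6.

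PSPC1, a paraspeckle protein, had 1.57, 0.67 and 1.63, and the ubiquitin ligase HERC4 had 1.59, 0.82 and 1.56, each lowest of 7 on 1 spot. The other HERC4 probes above background differed by 0.10 and -0.23, so the difference was not shared by all probes of the gene. TICAM1, the adaptor of TLR3, had 3.78, 3.14 and 3.76 and 3.71 to 3.95 in row 1, but its spots gave -1.02 and -0.24 and its other probe -0.29. ARL2, a small GTPase, had 1.49, 0.70 and 1.48. The empty-vector and PARN shRNA arrays were nearly as low for ARL2, at 0.77 and 0.76. CRYAB, a small heat shock protein, had 1.96, 0.74 and 1.48, within a row 1 range of -0.83 to 1.65.

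Among the higher genes of this brighter set, PEG10, a retrotransposon-derived imprinted gene, had -0.35, 0.47 and -0.23 and -0.45 to 0.10 in row 1. MAOB, a monoamine oxidase, had -1.79, -1.08 and -1.72 and -2.26 to -1.73 in row 1. In both genes the CNOT7 shRNA array lay above the other 6 without overlap, and their spots gave 0.74 and 0.77 for PEG10 and 0.66 and 0.70 for MAOB.

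TIMP2, an inhibitor of matrix metalloproteinases, had -0.31, 0.35 and -0.25, and TMEM132A 2.12, 2.77 and 2.14. RAD51AP1, a factor of homologous recombination, had -1.42, -0.81 and -1.80. Each was highest of 7 on the CNOT7 shRNA array. PNRC2, which links the decapping enzyme to nonsense-mediated decay, had 0.04, 0.67 and -0.05, also highest of 7, and its other probe differed by 0.52. Its row 1 levels were 0.35 to 0.53, so that the mates were the lowest arrays. FOXF2, a forkhead transcription factor, had 0.09, 0.68 and 0.08 within a row 1 range of 0.23 to 0.82.

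**Figure D4:**
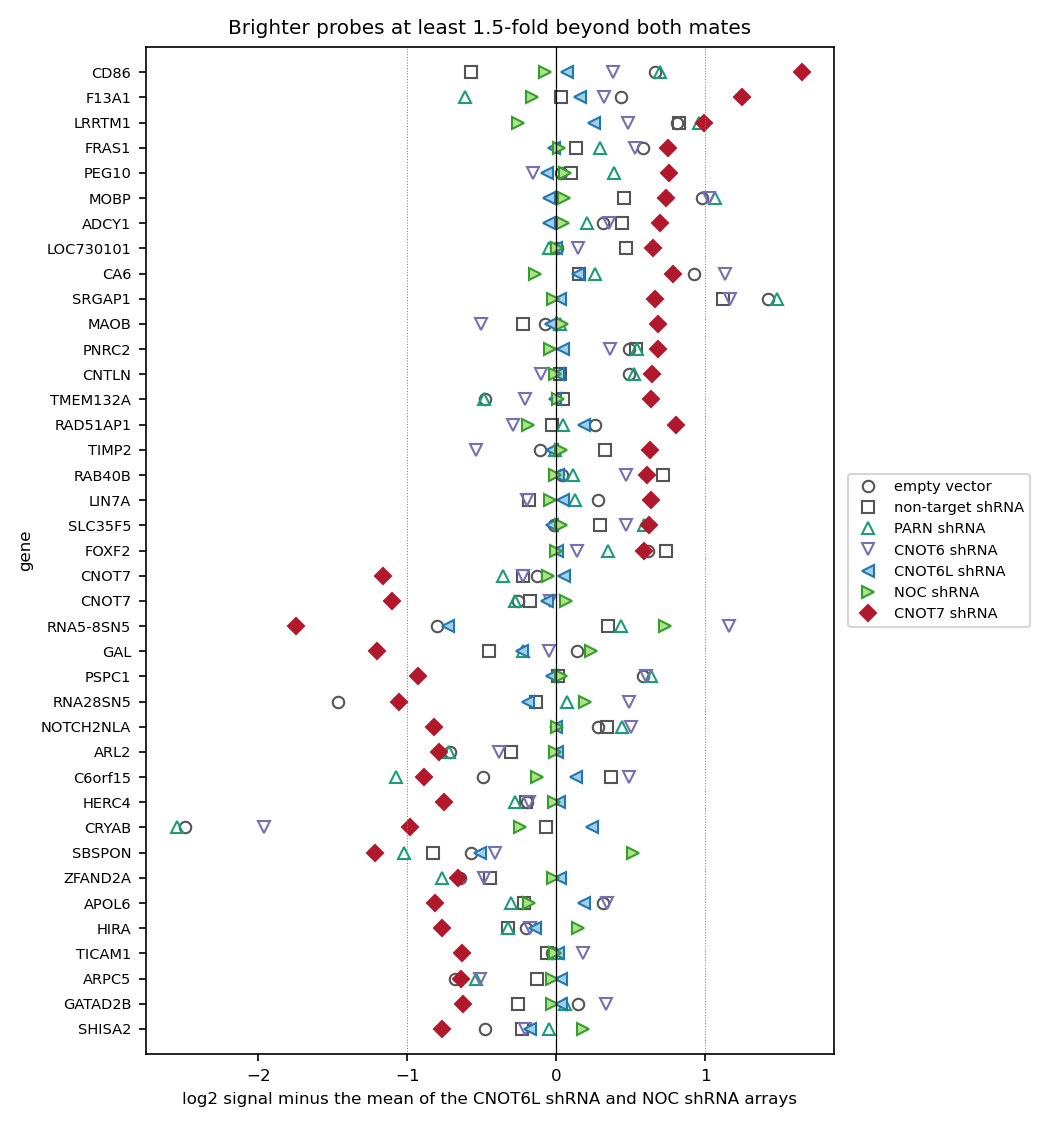
Difference of each array from the mean of the CNOT6L shRNA and NOC shRNA arrays (log2, horizontal) for named probes among the brighter 18186 that were at least 1.5-fold beyond both mates, with 1 symbol per array and dotted lines at 2-fold. The diamonds of PEG10, MAOB, GAL and HIRA lie outside the other 6 arrays, while those of FOXF2 and CRYAB lie among the arrays of row 1.

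Few genes were past 1.5-fold on 2 or more probes. Of 4203 genes with 2 or more measured probes, 4 had at least 2 probes 1.5-fold higher (BMP3, CA6, F13A1 and MOBP) and 3 had at least 2 probes 1.5-fold lower (BEST3, CNOT7 and MPPED2). Only 0.495% and 0.412% of all probes were past 1.5-fold, so these counts do not tell how often the probes of a changed gene agree. No such counts are given for the mates. Apart from CNOT7 and BMP3, the genes named here were chosen after their values were seen. CNOT7 was the only gene with 2 probes past 2-fold lower, and F13A1 the only one with 2 probes past 2-fold higher. CA6, a secreted carbonic anhydrase, had -4.06, -2.89 and -4.60 on its called probe, but -2.86 on the empty-vector and CNOT6 shRNA arrays. BEST3, a bestrophin channel gene, had -5.58, -6.27 and -4.98 on probe A_33_P3249888, within the range of row 1.

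A further set of probes was detected on one side only. Of 42405 gene probes, 267 were well above background on the CNOT7 shRNA array and on neither mate, and 192 on both mates but not on the CNOT7 shRNA array. Set against the lowest signal that counted as above background, 47 of the former and 24 of the latter differed at least 2-fold. The direction of each difference follows from this selection, and no such counts are given for the mates. The 3 genes named here were chosen after their values were seen. SYNE1, a nuclear envelope spectrin, was at least 26.0-fold higher on probe A_33_P3335910 and the defensin DEFB114 at least 20.4-fold. Each value comes from 1 spot, and SYNE1 was above background on 2 of the 7 arrays and DEFB114 on 1. On the other side, FLG2, a filaggrin family gene, was at least 2.72-fold lower on the CNOT7 shRNA array than on both mates. Its value there, -9.04, lay within a row 1 range of -9.55 to -7.52, and it was above background on 3 of the 7 arrays.

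The gene lists gave the wider picture. CNOT7 was the only listed gene past 2-fold. Over all probes, 26.7% were above both mates, 39.2% were below both, and the median difference from the mean of the mates was -0.04. Genes of a list are therefore read beside these shares. These shares changed with signal level, and the brightest probes were lower as a body. At levels of 6 or more, 97.3% of 148 probes were below both mates with a median of -0.18, and at levels of 4 to 6 64.6% of 931 probes were below both with a median of -0.09. At levels of 0 to 2, the share above both mates was larger than 26.7%. The exosome and SKI, BTG and TOB, arginine methyltransferase, mitosis and DNA replication lists below had their median levels there. Each of these lists had a share above both mates that was larger still. The part of signal level in their counts was not tested. Of the spike-in transcripts, RNA added in the same amount to each sample, the brightest differed by -0.19 from CNOT6L shRNA and -0.15 from NOC shRNA. The next brightest differed by -0.09 and 0.29, and the one after by -0.05 and 0.46, so the spike-ins did not share a direction against NOC shRNA.

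In the mRNA decay machinery the exosome and SKI complex, which degrade mRNA from the 3′ end, had 12 of 17 genes above both mates and 2 below, with a median of 0.13. EXOSC3 had 1.14, 1.45 and 1.17 on CNOT6L shRNA, CNOT7 shRNA and NOC shRNA, and EXOSC4 2.52, 2.79 and 2.52. Row 1 reached 1.34 for EXOSC3 and 2.78 for EXOSC4, so the CNOT7 shRNA array was highest of 7 by 0.11 or less. SKIC8, of the SKI complex, had 1.40, 1.58 and 1.27. Of the 18 decapping and 5′ decay genes, including DCP2, XRN1 and the LSM ring, 2 were above both and 8 below, with a median of -0.05. Their median was close to that of all probes, and a smaller share was above both mates than over all probes.

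Among the adaptors, 4 of 5 BTG and TOB genes were above both mates and 0 below, with a median of 0.13. TOB1 had 1.96, 2.08 and 1.80, and BTG1 3.33, 3.41 and 3.22, each highest of 7 on the CNOT7 shRNA array. Of 22 RNA-binding recruiters of CCR4-NOT, 5 were above and 7 below, with a median of -0.06. TNRC6A, the scaffold of microRNA silencing, had 2.40, 2.65 and 2.33, and AGO2 2.38, 2.59 and 2.45, highest of 7 on the CNOT7 shRNA array. CPEB4, which binds cytoplasmic polyadenylation elements, had 2.47, 2.04 and 2.35, and NANOS1 differed by -0.49 and -0.63 from CNOT6L shRNA and NOC shRNA. Poly(A)-binding proteins and their partners, 9 genes, had a median of 0.02.

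Arginine methyltransferases, enzymes to which CNOT7 has been linked as a cofactor, had 6 of 8 genes above both mates and 0 below, with a median of 0.20. PRMT9 had -0.92, -0.55 and -0.89, and PRMT6 -0.37, -0.06 and -0.26, each highest of 7. Of 36 interferon-stimulated genes measured, 6 were above both mates and 8 below, and none was past 1.5-fold. Their median was 0.08 against CNOT6L shRNA and -0.29 against NOC shRNA. OAS1 had -5.71, -5.67 and -4.29 and MX1 -0.73, -0.38 and 0.48, so that within row 2 the NOC shRNA array was the one that stood apart, and the non-target array was also high, at -4.72 and 0.21. The order of the arrays was similar for IFI6, at -1.28, -0.96 and 0.06.

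Of 27 mRNAs with AU-rich elements, a class of short-lived transcripts, 3 were above both mates and 9 below, with a median of -0.04. The chemokine CXCL1 had -3.97, -3.02 and -2.29, between the mates, and MYC had 3.31, 3.41 and 3.11. Of 25 mitosis genes, 14 were above both and 5 below, with a median of 0.08, and of 29 DNA replication genes 15 were above and 8 below, with a median of 0.04. RFC3, a subunit of the clamp loader, had -0.06, 0.32 and -0.20 on its brighter probe, while its other probe differed by 0.07. GINS1, of the replicative helicase, had 0.05, -0.47 and 0.08 and -0.15 to 0.03 in row 1, without overlap with the other arrays.

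Of 24 genes of the unfolded protein and integrated stress response, 19 were below both mates and 4 above, with a median of -0.14. HERPUD1 had 6.55, 6.32 and 6.56, ATF4 6.46, 6.32 and 6.53, and DDIT3 2.18, 1.81 and 2.08. The median level of this list was 3.89, so it holds many of the bright probes that were lower in general, and the part of signal level in this count was not tested. PDIA4, a disulfide isomerase, lay on the other side with 1.87, 1.99 and 1.58. Of 22 p53 targets, 13 were below both and 4 above, with a median of -0.11 and with TP53I3 highest of 7 at 2.85 against 2.48 and 2.56.

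Of the 14 squamous markers measured, 7 were below both mates and 0 above, with a median of -0.08. Against the 2 control arrays in place of the mates, the median of this list was 0.08. TRIM29 had -1.36, -1.97 and -1.53 and S100A2 -1.61, -1.90 and -1.74, and with SOX2 these had their lowest level of the 7 arrays upon CNOT7 silencing. SOX2 lay at levels of 4 to 6, where 64.6% of all probes were below both mates. KRT6A, at -0.78, -1.40 and -0.90, and KRT6B, at -2.86, -3.42 and -2.82, were highest on the mates, and row 1 had -2.38 to -1.84 and -4.46 to -3.30. Immune, endothelial, fibroblast and lung alveolar markers had medians of -0.04, 0.10, -0.11 and -0.13, and no gene of these lists was past 1.5-fold.

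**Figure D5:**
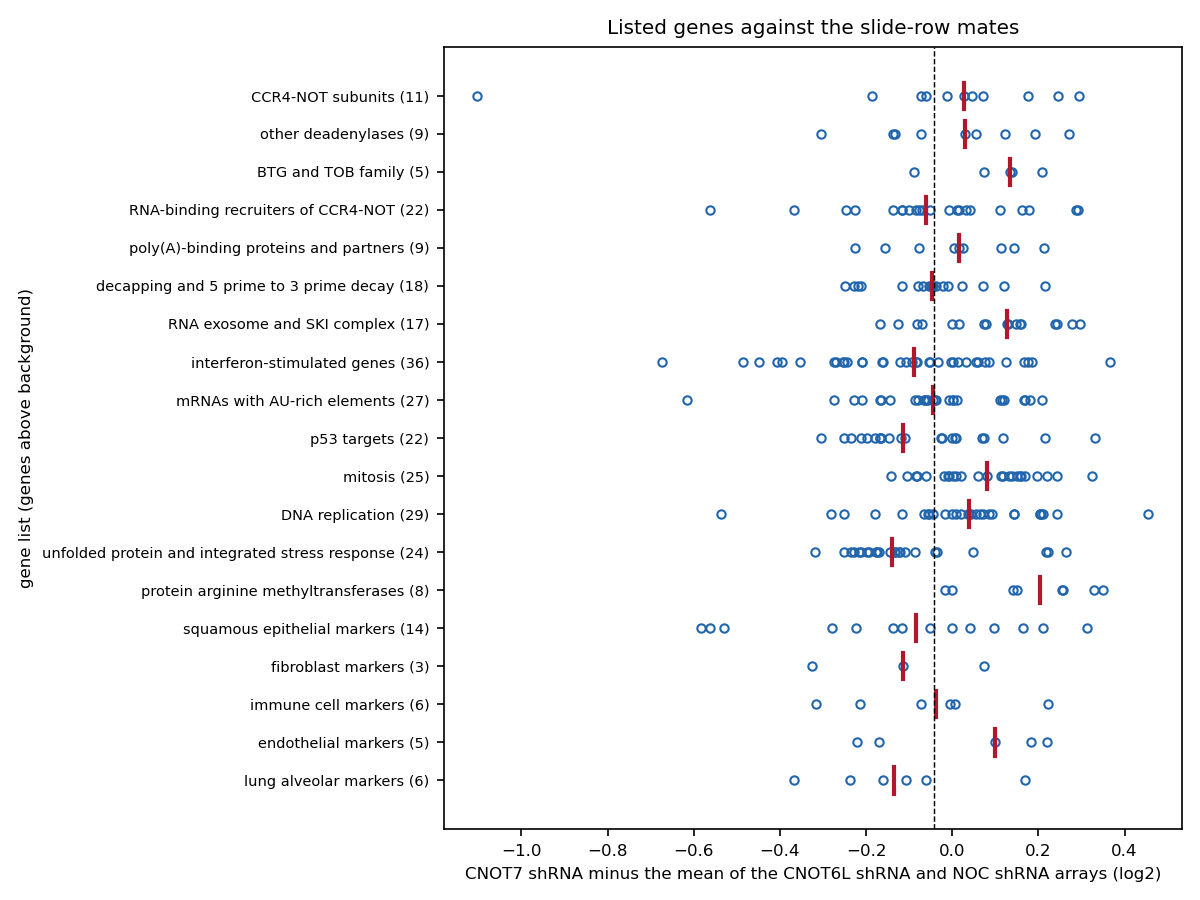
Difference of the CNOT7 shRNA array from the mean of the CNOT6L shRNA and NOC shRNA arrays (log2, horizontal) for each measured gene of the lists shown, with the list median as a red bar and the median of all probes, -0.04, as a dashed line. CNOT7 at -1.10 is the only point beyond 2-fold, and the medians run from -0.14 for the unfolded protein and integrated stress response to 0.20 for arginine methyltransferases.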

How the data were processed

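Per the file headers, the authors scanned 7 arrays on 1 slide and took the intensity of 62976 spots per array with Feature Extraction 10.7.3.1, which writes a median, a background and a background-subtracted processed value. A deposited table of the series was on a log2 scale. Its differences between the arrays of row 2 correlated with those of the scanner files at r = 1.00 across probes, apart from a constant, each probe is centred on its median over the arrays, and the column medians were 0.05 for empty vector, -0.02 for non-target, 0.09 for CNOT6 and 0 for the others.

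From the intensity of each spot, control spots and spots marked as outliers were left out, and log2 processed signals were averaged per probe, minus the 75th percentile over gene spots of the array. The 75th percentile was 3617 on the CNOT6L shRNA, 3986 on the CNOT7 shRNA and 3194 on the NOC shRNA array, and 87.8% to 88.0% of probes were above background. Background was passed where 50% or more of the spots of a probe carried the scanner software mark. Spike-in transcripts, scaled like the genes, differed by -0.19 to 0.06 between CNOT7 shRNA and CNOT6L shRNA and by -0.22 to 0.57 between CNOT7 shRNA and NOC shRNA.

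Symbols came from RefSeq accessions (GRCh38.p14, names only), and the CNOT6 probe was named through the labels. A probe was called at 2-fold or more beyond both mates. For a side at background, the bound took that array's lowest above-background value, or the probe's own value where that was higher. Genes were named by rule, as CNOT7, members of the 20 lists with a described role, and up to 12 genes per direction by the smaller difference, each with its brightest called probe and skipped where another probe was called the opposite way, with further genes marked as chosen after their values were seen. Each listed gene had its brightest probe. The lists and compared arrays were chosen with earlier results of these data known. The arrays limit the precision by their number, 1 per group, so no significance test was run. Alternatives were quantile normalization and normexp (limma 3.58.1, R 4.3.3, offset 50, on the median signal because no mean signal was in the files), other scaling, filters, thresholds and arrays. The calling rule was tested on simulated data with normally distributed noise, which cannot show how the rule treats outlying single spots. Untransfected cells and probe sequences were not analysed here, and 1 gene list and some genes are not reported here.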

Additional observations from a re-analysis of the deposited data

How the results depend on the processing

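No paired analysis was possible because the groups share only replicate number 1. The 43 higher and 10 lower probes became 75 and 2 without scaling between arrays, 15 and 6 with normexp background correction, 200 and 135 with no filter on dim probes, 8 and 0 at 4-fold, 180 and 150 at 1.5-fold, and 97 and 34 when only the brighter side had to be above background. Quantile normalization gave 51 and 6. Leaving out either mate gave 121 to 168 higher and 94 to 270 lower probes, and the control arrays in place of the mates gave 64 and 327, of which 7 and 3 were among the 43 and 10. The CNOT7 difference stayed negative under each alternative, at -0.87 and -0.93 for its probes without scaling and at -0.88 and -0.99 against the controls, where SULT6B1, LMTK3 and PSG8 turned to -0.50, -0.17 and 0.0749. The number of listed genes called, 1 (CNOT7), was 0 without scaling and with normexp, 2 with no filter or against the controls, and 1 to 4 without either mate. Of the 17 named genes, 2 were called with normexp and 2 against the controls. The cause of these shifts was not tested. The normexp offset of 50 by itself narrows the differences of dim probes, so calls lost with normexp are no independent check. Without scaling the median of all probes was 0.19 in place of -0.04, and 11 of 20 list medians changed sign, while 0 changed their side of that median. Without the NOC shRNA array 5 list medians changed their side, and against the controls 8. The SDs between arrays of row 2 stayed within 1.5 times under quantile normalization and normexp. Signal over background limits the dim probes, among which most calls lie.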
